A study of Mus musculus with 8 samples.

Results

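The transcriptome was compared between mouse embryonic stem cells (ESC) and the cells obtained from them by retinoic acid differentiation (RA-DIFF), using the pair of RNA-seq libraries whose labels give a wild-type genotype. All genes with at least 10 counts in either library of the pair were taken, which kept 23184 of the 32567 genes in the table (71.2%). Of these, 18343 genes reached 10 counts in both libraries, 2716 only in RA-DIFF and 2125 only in ESC. The rule uses counts of the same libraries. For the 342 genes whose higher count was exactly 10 the log2 ratio ran from -2.64 to 2.33, and for the 385 left out with a higher count of exactly 9 it ran from -2.51 to 2.21.

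The ESC library came from wild-type cells that the study kept with leukemia inhibitory factor, which holds mouse ESC in the undifferentiated state, on irradiated mouse embryonic fibroblasts or on gelatin. For RA-DIFF, cells were passaged 4 times without fibroblasts and grown as embryoid bodies, retinoic acid was added in the later part of that culture, and the dissociated cells were collected soon after plating. A second line, homozygous for the Hdh ex4/5 null allele of the Huntington's disease gene (Htt-null), gave a library at each stage. The study made 8 libraries in all, 4 of them RNA-seq, with 1 per condition. No spread between cultures of the labelled wild-type pair could therefore be estimated, and no statement below rests on a test. The counts added up to 87924678 in wild-type ESC and 110569127 in RA-DIFF labelled wild type, and to 63617410 and 100927951 in the ESC and RA-DIFF libraries labelled Htt-null.

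The targeted gene was examined first, because it checks the labels. Htt (ENSMUSG00000029104, chromosome 5, 34761740 to 34912534 in GRCm38) was counted 14385 times in wild-type ESC (166 counts per 1000000, CPM) and 7260 times in Htt-null ESC (111 CPM). The RA-DIFF libraries were in reverse order, with 8212 counts (73.3 CPM) in the library labelled wild type and 9722 (98.7 CPM) in the library labelled Htt-null. The Hdh ex4/5 allele removes only part of the gene, so counts per gene do not measure it directly. The wild-type RA-DIFF levels that accompany the study also lay nearer to the deposited column with the Htt-null label. For both reasons the RA-DIFF libraries are named by their labels throughout, and the value of RA-DIFF labelled Htt-null over the same wild-type ESC library is given beside the main value for the named genes past the limit whose sign it turned and for some others. Most named genes differed in level between the RA-DIFF libraries. Those 2 ratios share the wild-type ESC library. A further ratio, of RA-DIFF labelled Htt-null over Htt-null ESC, shares no library with the main pair and is called the labelled Htt-null pair.

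Retinoic acid is made from vitamin A and enters the nucleus, where it binds receptors of the RAR family that sit on DNA together with RXR partners. In ESC aggregates it drives exit from pluripotency and the formation of neural cells, and it sets position along the head to tail axis through the Hox genes. Pluripotency rests on a small network of transcription factors, among them Pou5f1 (Oct4), Nanog and Sox2, which keep each other and themselves expressed.

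Levels are given as counts, as CPM on a common scale (TMM factors of edgeR), or as log2 ratios of RA-DIFF over ESC with a prior count of 2. A gene was called higher or lower when its log2 ratio was beyond 0.75 in either direction, the fold limit of the study's methods. In RA-DIFF labelled wild type, 8226 genes were higher (35.5% of those measured), 6900 were lower (29.8%) and 8058 lay within the limit, and the median log2 ratio of all genes was 0.11. These shares are the background for every list below. They depend on the scaling, and upper-quartile factors gave 6920 higher and 8363 lower. With RA-DIFF labelled Htt-null in its place, 7933 genes were higher (34.2%) and 6997 lower (30.2%). Ratios beyond 4 on the log2 scale were found for 1377 genes that were higher and 1089 that were lower. Of the 8226 higher genes 6492 (78.9%) were also higher in the labelled Htt-null pair. Of the 6900 lower genes 5599 (81.1%) were also lower there. Among the genes measured here, they made up 83.3% of the higher and 80.5% of the lower genes of that pair. Intervals below are 95% counting intervals of the ratio, which hold the error of counting and no spread between cultures. PCR copies of a molecule are read as if they were separate, so the counting error may be larger than these intervals show.

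**Figure D1:**
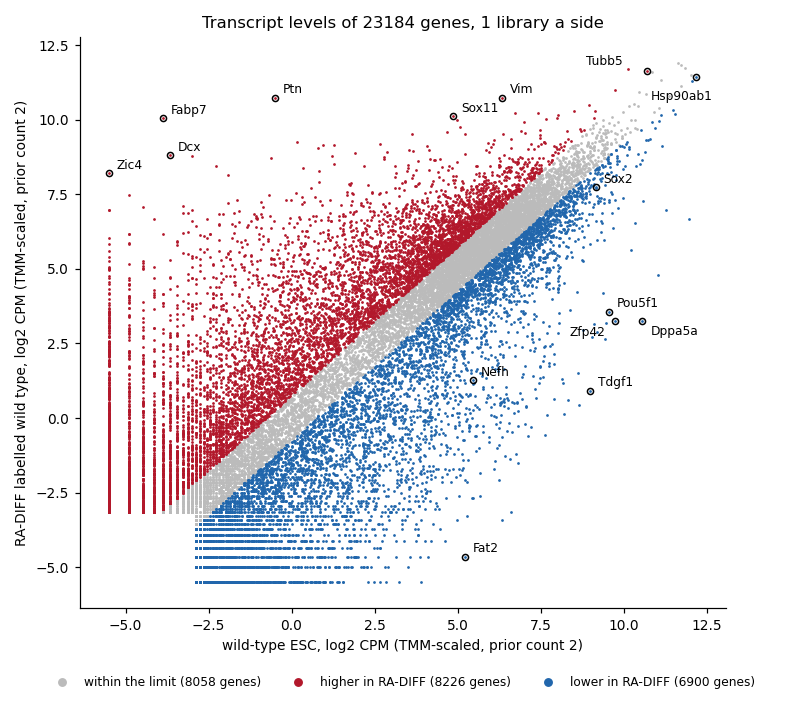
Log2 CPM of 23184 genes in wild-type ESC (x axis) and in RA-DIFF labelled wild type (y axis), 1 point a gene and 1 library a side, coloured by the log2 limit of 0.75, with 15 genes of the text ringed. The 8226 higher genes reach levels of Zic4 and Fabp7 far above the diagonal, and the pluripotency genes Pou5f1, Zfp42, Dppa5a and Tdgf1 lie far below it.

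Genes read in practice at a single stage were counted next. A count of 0 allows up to 3 counts, so genes with at most 3 counts in ESC and at least 100 in RA-DIFF labelled wild type were taken as such, and the reverse. There were 358 of the former (1.54%), 251 of them protein-coding, and 155 of the latter (0.669%), 109 of them protein-coding. With RA-DIFF labelled Htt-null the numbers were 320 and 233. The neural transcription factors Zic4 (0 counts in ESC, 32943 in RA-DIFF), Dbx1 (0 and 14027), Tfap2b (1 and 8140), Barhl2 (1 and 8030) and Pou3f4 (1 and 6549) were among the 10 genes with the most RA-DIFF counts. The others were the microRNA host transcript Mir124-2hg (1 and 20045), the non-coding RNA Pantr1 (0 and 13979), the integrin subunit Itgb8 (2 and 15235), the protocadherin Fat4 (3 and 11467) and the neuregulin receptor Erbb4 (0 and 7429). Against a floor of 3 counts the log2 ratio of Zic4 was at least 13.05 and that of Dbx1 at least 11.82. In the reverse direction, the 10 genes with the most ESC counts included Fat2 (3240 in ESC, 2 in RA-DIFF), Scand1 (1507 and 2), Hist1h2aj (1300 and 0), the oocyte and germ cell gene Nlrp14 (1279 and 2) and RP23-423J10.2 (1022 and 2), followed by Msln (978 and 1), 4930591A17Rik (824 and 0), Nlrp4a (645 and 1) and Gtsf1 (618 and 0). Hist1h2aj was counted 1 time in Htt-null ESC, so its ESC level was seen in the wild-type ESC library alone.

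Core and naive pluripotency genes were lower almost throughout. Of 28 genes, 26 were lower and none was higher, with a median log2 ratio of -5.89. Pou5f1 was counted 65651 times in ESC and 1324 times in RA-DIFF labelled wild type, a log2 ratio of -6.00 (-6.08 to -5.92). Nanog went from 62010 to 1009 counts, Esrrb from 50840 to 825 and Zfp42 (Rex1) from 74383 to 1073. The growth factor Fgf4 (25712 and 122 counts), the Nodal co-receptor Tdgf1 (44000 and 208) and the chromatin protein Utf1 (34971 and 148) had the lowest ratios of the list, at -8.06, -8.08 and -8.23. The other 2 genes lay within the limit. With RA-DIFF labelled Htt-null 27 of the 28 were lower and 1 was higher. Stat3, which carries the signal of leukemia inhibitory factor, was at 4588 and 6862 counts (log2 ratio 0.21), and Dppa3 at 91 and 72 (-0.69). Sox2, which is also a factor of neural progenitors, was lower by less than most of the list, with 50097 and 23879 counts and a ratio of -1.44 (-1.46 to -1.42).

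A low but well counted level of these transcripts was left in RA-DIFF labelled wild type. Pou5f1 stood at 1.56% of its ESC level, Nanog at 1.26%, Esrrb at 1.26%, Zfp42 at 1.12% and Prdm14, a repressor of differentiation genes, at 1.36%. The median over the 28 genes was 1.67% of ESC. In RA-DIFF labelled Htt-null it was 0.298%, with 123 counts of Pou5f1, 193 of Nanog, 113 of Esrrb, 79 of Zfp42 and 2 of Prdm14, and the median log2 ratio there was -8.30. Tbx3 went the other way, with 287 counts in the library labelled wild type and 1041 in the library labelled Htt-null. In bulk RNA, fewer cells of a type and less RNA per cell cannot be told apart.

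**Figure D2:**
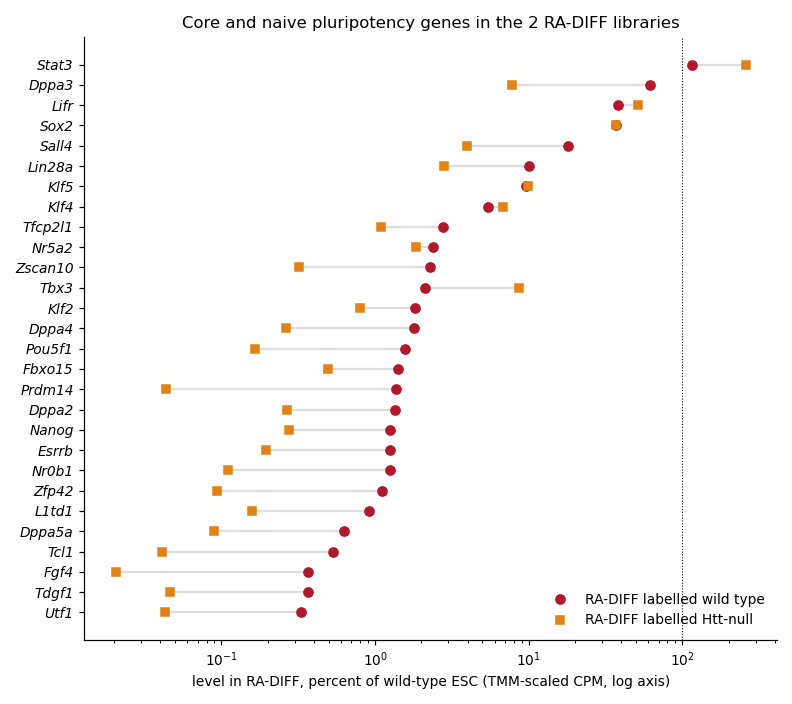
Level of 28 core and naive pluripotency genes in RA-DIFF as a percent of wild-type ESC (log axis), for the library labelled wild type (circles) and the library labelled Htt-null (squares), 1 library each. Circles lie to the right of their squares for 23 of the 28 genes, with Pou5f1 at 1.56% and 0.165%, and to the left for Tbx3, Lifr, Stat3, Klf4 and Klf5.

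Genes of the epiblast stages that follow naive pluripotency were split, with 7 of 15 higher, 6 lower and a median of 0.49. The Nodal pathway genes of this list were lower, with 8978 and 157 counts of the ligand Nodal, 13975 and 218 of its inhibitor Lefty1, and 17375 and 73 of Lefty2 (log2 ratios -6.19, -6.36 and -8.22). Those higher also serve in the neural plate. Otx2, which specifies the anterior head, had 7855 and 34152 counts (1.75), Zic2 had 4850 and 15404 (1.30), and Sox11, a factor of early neurons, had 2542 and 124246 (5.24). Pou3f1 had 1152 and 2553 counts (0.78), but 276 in RA-DIFF labelled Htt-null, a ratio of -2.24.

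Genes of the rare 2-cell-like state of ESC cultures were lower for all 12 members, with a median of -4.53. The Zscan4 genes, which mark that state, were at 495 and 32 counts (Zscan4d), 299 and 30 (Zscan4f) and 172 and 18 (Zscan4c). They are near-identical copies, so reads may be shared among them or lost. Germline genes were lower for 18 of 20, with a median of -4.02. The RNA-binding protein Dazl had 9336 and 46 counts (-7.96), the meiotic chromosome protein Hormad1 3386 and 9 (-8.58, -10.06 to -8.00), the Piwi protein Piwil2 3351 and 23 (-7.41) and the primordial germ cell factor Prdm1 6074 and 463 (-4.08). Nanos3 was the only higher gene, with 37 and 260 counts (2.38), and 1 gene lay within the limit.

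Genes that retinoic acid receptors switch on directly were mostly higher. Of the 20 measured of 21 listed, 14 were higher and 1 was lower, with a median of 2.88 against 0.11 for all genes. RefSeq promoters of GRCm38.p6 (250 bases before to 50 after each start) were given for 14 of the 21 genes and were searched on both strands for the retinoic acid response element of the DR5 type, a pair of half-sites in the same direction with 5 bases between them. A half-site was AGGTCA or, with a changed first base, GGGTCA, and equally AGTTCA or its variant GGTTCA. It was found in the promoters of Rarb and Cyp26a1 alone among these genes, and in 32 of all 32851 promoters (0.0974%). The 150 bases before each start are shown 5' to 3' on the gene's strand, with the element in capitals, because these are the sequences through which the receptors are known to act. They lie at chr14:16575477-16575626 on the minus strand (Rarb) and chr19:37697658-37697807 on the plus strand (Cyp26a1), and the element ends 37 and 16 bases before the start.
Rarb: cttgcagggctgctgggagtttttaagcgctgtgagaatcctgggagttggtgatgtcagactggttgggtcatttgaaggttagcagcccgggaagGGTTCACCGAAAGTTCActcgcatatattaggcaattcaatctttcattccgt
Cyp26a1: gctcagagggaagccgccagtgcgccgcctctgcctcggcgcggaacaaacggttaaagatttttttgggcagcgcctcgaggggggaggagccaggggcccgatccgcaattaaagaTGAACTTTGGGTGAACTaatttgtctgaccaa
The element of Cyp26a1 is read on the other strand. The presence of these letters is a description of the sequence and not a measure of binding.

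Rarb, the receptor gene that retinoic acid induces through this element, had 54 counts in ESC and 765 in RA-DIFF labelled wild type (log2 ratio 3.41, 3.06 to 3.88), and 3805 in the library labelled Htt-null (5.91). Cyp26a1, which encodes an enzyme that breaks retinoic acid down, had 50 and 106 counts (0.69, 0.22 to 1.23) and 114 in the library labelled Htt-null, so it stayed within the limit in the labelled wild-type pair. The related enzyme gene Cyp26b1 had 26 and 17738 counts (8.94) in the labelled wild-type pair and 1242 in the library labelled Htt-null (5.29). Both libraries were therefore above ESC for Rarb and Cyp26b1, but in opposite order.

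Other genes of retinoid handling were higher in both RA-DIFF libraries. The carriers Crabp1 (1540 and 12153 counts, 2.61) and Crabp2 (193 and 7004, 4.80), the uptake receptor Stra6 (77 and 896, 3.14) and the retinol oxidising enzyme Rdh10 (567 and 2209, 1.59) were among them. The reductase Dhrs3 had 215 and 413 counts (0.57) in the labelled wild-type pair and 1875 in the library labelled Htt-null (2.93). The transcription factors downstream included Nr2f1 (24 and 13299 counts, 8.63), Nr2f2 (35 and 11019, 7.85), Meis1 (89 and 9395, 6.32) and Meis2 (848 and 10677, 3.28). Tgm2, a transglutaminase, was the lower gene of the list, with 1392 and 371 counts (-2.27), but 2027 in the library labelled Htt-null (0.36). Cdx1 had 15 and 77 counts (1.86), and 7 under the Htt-null label (-1.07). Among the 6 retinoid receptors, Rarg was lower (9039 and 1037 counts, -3.49), Rara was lower by less (5216 and 3307, -1.03), Rxra was higher (2897 and 7822, 1.06) and Rxrb lay within the limit.

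Hox genes are arranged in 4 clusters in which the low-numbered paralogues mark the hindbrain and the high-numbered ones the trunk and tail. Of the 12 measured of paralogues 1 to 4, 9 were higher and 1 lower (median 5.40). Hoxa2 had 0 and 1144 counts and Hoxb1 0 and 532, log2 ratios of at least 8.21 and at least 7.10 against the floor. Of the 11 of paralogues 5 to 8, 10 were higher (median 3.95), among them Hoxb8 (5 and 800 counts, 6.49) and Hoxb5 (0 and 240, at least 5.95). Hoxd8 was the exception, with 119 and 50 counts (-1.57) and 243 under the Htt-null label (0.84). Of the 12 measured of 16 listed for paralogues 9 to 13, 4 were higher and 7 lower, and the median was -2.01 or, with genes at 0 set at their bounds, -1.82. Hoxb9 (147 and 652 counts, 1.77) and Hoxa9 (25 and 144, 2.07) were higher, and Hoxd13 (266 and 59, -2.49) and Hoxc13 (148 and 12, -3.74) were lower. The medians of the 3 sets were thus 5.40, 3.95 and -2.01 from anterior to posterior. In the labelled Htt-null pair they were 4.04, 3.67 and -0.60. Paralogues 9 to 13 summed to 8.71 CPM in ESC and 9.20 in RA-DIFF, so that set was not lower in sum. Keeping only genes whose log2 CPM averaged above 0 over the 4 libraries left few Hox genes. The median of paralogues 5 to 8 was then the value of Hoxd8 alone (-1.57). That of paralogues 9 to 13 equalled the value of Hoxb9 (1.77), so both signs turned.

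Genes of the forebrain and midbrain were higher as well, 18 of 20 with a median of 5.26. Otx1 had 44 and 17019 counts (8.16), the midbrain genes En2 (299 and 10953, 4.82), En1 (33 and 2832, 5.97) and Pax5 (70 and 9280, 6.64) were higher, and the forebrain genes Six3 (4 and 1998, 8.03), Emx2 (4 and 1511, 7.63) and Fezf2 (0 and 1298, at least 8.39) were higher too. Six3 had more counts under the Htt-null label, with 4309, while Otx1 (3304), Pax5 (1303) and Barhl2 (1240) were higher in the library labelled wild type. Dmbx1, a midbrain factor, had 127 and 1631 counts (3.29) but 51 in the library labelled Htt-null (-1.46). Rax, an eye field factor, was the lower gene of the list (39 and 6 counts, -2.64). Of 9 genes of hindbrain segmentation, 5 were higher and 1 lower, and Egr2 (13 and 109 counts, 2.53), which patterns the rhombomeres, was higher. Transcripts of forebrain, midbrain, hindbrain and, at lower counts, trunk were thus read in the same library, and bulk counts do not tell whether the same cells held them.

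Along the dorsoventral axis of the neural tube, 22 of 25 progenitor factors were higher and 2 lower, with a median of 4.14. The dorsal genes Pax3 (6 and 6304 counts, 9.27), Pax7 (32 and 725, 4.05) and Msx3 (1 and 1812) and the intermediate genes Dbx1 (0 and 14027), Pax6 (404 and 9273, 4.14) and Irx3 (125 and 3198, 4.29) had higher counts in the library labelled wild type than in the one labelled Htt-null, where they were counted 862, 95, 231, 1228, 4701 and 323 times. The 5 ventral genes named here had the opposite order. Shh, the ventral signal, had 0 counts in ESC, 1326 in the library labelled wild type and 9960 in the library labelled Htt-null. Foxa2 of the floor plate had 28, 211 and 1208 counts, Nkx2-2 had 11, 296 and 1652, Nkx6-1 had 8, 278 and 773, and Olig2 of the motor neuron domain had 1, 3981 and 10451. All 5 were above ESC in both RA-DIFF libraries. The order of the other genes of this list was not counted, and 45.2% of all genes had the higher CPM under the Htt-null label. The difference between the libraries has 1 culture on each side and was not tested.

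Neural progenitor genes were higher for 16 of 18, with a median of 4.27 and 3.71 for the library labelled Htt-null. Fabp7, the fatty acid binding protein of radial glia, had 4 and 118507 counts, the highest ratio of all protein-coding genes by its counting interval (13.92, 13.13 to 16.36). The intermediate filament genes Nes (552 and 64798 counts, 6.50) and Vim (7017 and 191786, 4.40), the cadherin Cdh2 (207 and 64420, 7.90), the RNA-binding protein Msi1 (1540 and 57403, 4.85), the transcription factors Sox9 (14 and 8098, 8.62) and Sox1 (1101 and 31981, 4.49) and the Notch target Hes5 (18 and 2014, 6.29) were higher. Sox2 was the lower member and Hes1 lay within the limit (3847 and 3976 counts).

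Notch ligands and proneural factors, which start neurogenesis, were higher for 20 of 24 (median 4.34, or 4.11 with genes at 0 at their bounds). Neurog2 had 0 and 4282 counts, Neurog1 1 and 891, Nhlh1 3 and 3767 and the Notch ligand Dll1 1048 and 14615. For 21 of the 24 genes the CPM was lower under the Htt-null label than under the wild-type label, as it was for 53.6% of all genes measured, with 296 counts of Neurog2, 144 of Neurog1 and 465 of Nhlh1, and the list median there was 2.87. Neurod1 was within the limit at 906 and 1278 counts, and its count of 287 in the library labelled Htt-null was lower than in ESC (-1.83).

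Pan-neuronal genes were higher for 20 of 24 and lower for 1, with a median of 4.15. The microtubule proteins Tubb3 (2942 and 98047 counts, 4.69), Map2 (1080 and 81580, 5.87) and Dcx (5 and 50329, 12.46), the growth cone protein Gap43 (406 and 18004, 5.09), the RNA-binding proteins Elavl3 (1159 and 24762, 4.05) and Elavl4 (253 and 12835, 5.28), and the synaptic genes Syt1 (21 and 5235, 7.47) and Snap25 (118 and 4231, 4.77) were higher. Rbfox3 (NeuN), a gene of mature neurons, had 185 and 1767 counts (2.87). Stmn2 was already well counted in ESC, with 18559 and 22798 counts (-0.07), and the heavy neurofilament gene Nefh was lower (3801 and 268, -4.18). Under the Htt-null label 17 of the 24 genes were higher and the median was 2.77, with 26724 counts of Tubb3 and 16488 of Dcx. Per kilobase of exon, RA-DIFF labelled wild type held 846 CPM of Fabp7, 468 of Tubb3, 361 of Vim, 90.1 of Nes and 35.5 of Dcx, and the library labelled Htt-null 918, 145, 613, 130 and 13.2. Over the whole lists, 2 of the 24 pan-neuronal genes and 10 of the 18 neural progenitor genes had the higher CPM under the Htt-null label, against 45.2% of all genes.

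Factors of neuron subtypes in the hindbrain and spinal cord were higher for 25 of 32 and lower for 4 (median 3.17, and 2.08 with 20 higher for the library labelled Htt-null). Lhx9 (9 and 14106 counts, 9.97), Lhx1 (11 and 3434, 7.69) and Lhx5 (15 and 1979, 6.50) of dorsal and intermediate interneurons, Evx2 (0 and 485, at least 6.97) and Tal1 (8 and 2016, 7.30) and Gata2 (32 and 1690, 5.27) of the V2b interneurons were higher. Sensory neuron factors differed between the RA-DIFF libraries. Pou4f1 (Brn3a) had 665 counts in ESC, 3519 in the library labelled wild type (2.03) and 347 in the library labelled Htt-null (-1.12), Pou4f2 had 427, 1551 and 151, Tlx3 had 64, 311 and 22, and Phox2a of the hindbrain had 150, 480 and 23. Mnx1, a marker of spinal motor neurons, was lower in the labelled wild-type pair (70 and 9 counts, -3.02), and Isl1 of motor and sensory neurons was higher (93 and 386, 1.66). Of 17 genes of transmitter synthesis and loading, 12 were higher and 3 lower (median 2.51, or 2.37 with bounds). The glutamate loader Slc17a6 (0 and 3718 counts, at least 9.91) and the GABA genes Gad1 (173 and 3708, 4.04), Gad2 (90 and 3388, 4.84) and Slc32a1 (41 and 1057, 4.26) were higher. Chat, which makes acetylcholine, had 14 and 15 counts.

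Astrocyte genes, several of which radial glia also express, were higher for all 12 (median 4.10, or 3.91 with bounds). The glutamate transporters Slc1a2 (21 and 16508 counts, 9.12) and Slc1a3 (926 and 26752, 4.48), the filament Gfap (30 and 3465, 6.39) and the water channel Aqp4 (1 and 838) were higher. The list summed to 924 CPM in the library labelled wild type and 1539 under the Htt-null label, where 8 of the 12 genes had the higher CPM (45.2% of all genes) and the median ratio was 4.22. Of 13 genes of the oligodendrocyte lineage 5 were higher and 3 lower (median 0.30). Olig1 (95 and 2303, 4.20) and Olig2 were among the higher, and the myelin genes Mog (200 and 197, -0.39) and Mag (11 and 18, 0.30) lay within the limit.

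Lists of cell types other than neural ones were read beside these, since the culture could hold them. Fibroblast and mesenchyme genes were higher for 16 of 20 and lower for 2 (median 3.12). Col3a1 (208 and 40789 counts, 7.23), Dcn (10 and 2036, 7.05), Lum (0 and 1404, at least 8.50) and Postn (66 and 1949, 4.47) were higher. The summed level of the list was 1394 CPM in ESC and 1112 in RA-DIFF, and Fn1 alone gave 1290 and 92.8 CPM of these. In the library labelled Htt-null the sum was 3191 CPM and the median 4.50, with 90749 counts of Col3a1 and 10729 of Dcn. Fibroblasts were used as feeder cells before the 4 feeder-free passages, and their part in these counts was not tested. Lox, which cross-links collagen, had 326 and 233 counts (-0.85) but 3424 in the library labelled Htt-null (3.20).

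Contractile genes of smooth muscle differed most between the RA-DIFF libraries. In the labelled wild-type pair 3 of 12 were higher and 5 lower, with a median of 0.09 and sums of 254 and 257 CPM. In the library labelled Htt-null 8 were higher and 1 lower, with a median of 2.64 and a sum of 1760 CPM. Acta2 had 294 counts in ESC, 4593 in the library labelled wild type (3.59) and 62554 in the library labelled Htt-null (7.54). Tagln had 268, 1378 and 15892 counts, and Tpm2 had 1429, 849 and 2926 (-1.12 and 0.85). In the labelled Htt-null pair, which has its own ESC library, the list median was 1.71.

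Among other cell types, the endothelial, epidermal, microglia, muscle and trophoblast lists were lower in sum, while the neural crest and blood lists were higher. Endothelial genes were lower for 8 of 13 (median -2.12), with sums of 260 and 31.3 CPM, and 98.4 under the Htt-null label. Pecam1, which ESC also express, had 15620 and 374 counts. Kdr, the receptor for vascular endothelial growth factor, was higher (79 and 2011, 4.27), and Emcn had 0 and 110 counts and 1084 in the library labelled Htt-null. Epidermal genes were lower for 11 of 13 (median -3.47, sums 286 and 25.1 CPM), and the basal keratins Krt5 (30 and 1 counts) and Krt14 (45 and 3) were at or under the floor in RA-DIFF. Of the 7 measured of 10 microglia and leukocyte genes 6 were lower (sums 116 and 6.60 CPM), with Tyrobp at 0 in both libraries and Spi1 at 35 and 0. Muscle genes were lower for 9 of 13 (sums 70.9 and 18.1 CPM), trophoblast genes for 4 of 9 (46.4 and 24.5 CPM). Of the 7 measured blood genes 3 were higher, with Tal1 holding most of the 25.8 CPM in RA-DIFF and the embryonic globin genes at 4 counts or fewer. Neural crest genes were higher for 9 of 14 (median 1.86), led by Tfap2b, Ednrb (16 and 38767, 10.71) and Pax3, which neural tube cells also express, while the crest factors Foxd3 (3041 and 31) and Sox10 (44 and 30) were lower. Sox10 had 62 counts under the Htt-null label, a ratio of 0.30.

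Endoderm and mesoderm lists had medians of opposite sign in the labelled wild-type and the labelled Htt-null pair, with members in both directions in each. Primitive and visceral endoderm genes had a median of -1.03 in the former (5 of 21 higher, 11 lower) and 0.56 in the latter (10 higher, 9 lower). With RA-DIFF labelled Htt-null over wild-type ESC the endoderm median was -0.82 (8 higher, 11 lower), so its sign turned with the ESC library and not with the RA-DIFF library alone. Hnf4a (460 and 18 counts, -4.87) and Apob (434 and 15, -5.01) were lower, and the basement membrane collagens Col4a1 (8202 and 47052, 2.15) and Col4a2 (3648 and 24623, 2.38) were higher, and the list summed to 714 CPM in ESC and 1212 in RA-DIFF. Afp, the defining secreted protein of visceral endoderm, had 31 and 1 counts. Primitive streak and paraxial mesoderm genes had a median of -0.51 in the labelled wild-type pair (4 of 13 higher, 3 lower) and 1.86 in the labelled Htt-null pair (7 higher, 6 lower). T (Brachyury) had 32 and 68 counts (0.69) but 1172 in the library labelled Htt-null (4.93). Wnt3, also a neural tube ligand, had 7 and 13120 counts (10.15) and 2838 in the library labelled Htt-null. These differences rest on 1 library per condition and were not tested.

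**Figure D3:**
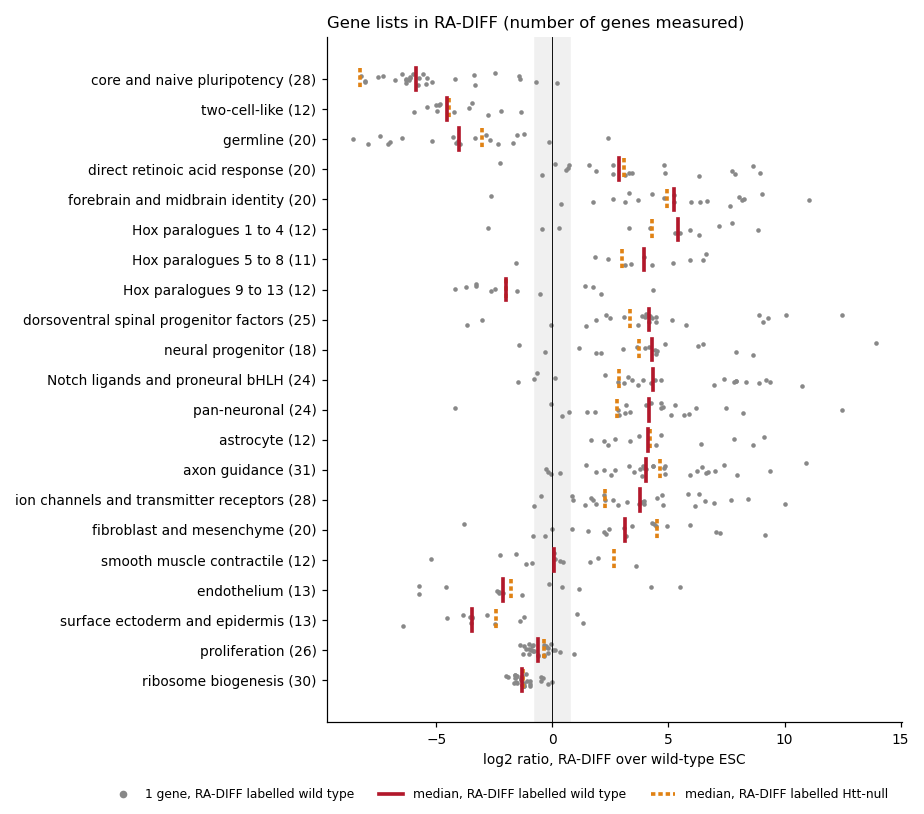
Log2 ratios of RA-DIFF over wild-type ESC for the genes of 21 lists, 1 point a gene for the library labelled wild type, with the list median for that library (solid bar) and for the library labelled Htt-null (dotted bar), and the log2 limit of 0.75 shaded. Pluripotency medians lie at -5.89 and -8.30, pan-neuronal medians at 4.15 and 2.77, and smooth muscle medians at 0.09 and 2.64.

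Among signalling genes, the Wnt pathway was higher for 24 of 32 and lower for 4 (median 2.72). The ligands Wnt8b (14 and 8022 counts, 8.61), Wnt7b (436 and 15127, 4.74) and Wnt1 (1 and 850), the receptor Fzd1 (333 and 9306, 4.43), the activator Rspo3 (1 and 2768) and the feedback targets Axin2 (802 and 11726, 3.50) and Nkd1 (250 and 9036, 4.80) were higher, and the receptor Fzd7 (17444 and 3367, -2.74) and the factor Tcf7 (8961 and 2255, -2.36) were lower. In the FGF pathway 13 of 24 were higher and 8 lower (median 1.03). Fgf15 (1098 and 55045 counts, 5.28), Fgfr2 (610 and 10949, 3.79) and Fgfr3 (227 and 2982, 3.33) were higher, and Fgf4, Fgf1 (1877 and 75, -4.97) and the target Etv5 (29388 and 5286, -2.84) were lower. Etv5 had 19989 counts and the phosphatase Dusp6 33919 in the library labelled Htt-null, against 5286 and 10447 in the library labelled wild type. The BMP and TGF-beta genes were divided, 12 of 27 higher and 12 lower (median 0.22). The BMP targets Id2 (923 and 27421, 4.52), Id3 (461 and 20702, 5.11) and Id4 (576 and 10122, 3.76) and the antagonist Nog (74 and 1040, 3.41) were higher, and the inhibitory Smad7 (4934 and 629, -3.34) was lower. Bmp4 had 1785 and 488 counts (-2.24) and 2220 in the library labelled Htt-null (0.13).

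Epithelial cadherins and junction genes were lower and the cadherins of neural tissue were higher. Cdh1 (E-cadherin) had 33855 and 2089 counts (-4.39), Epcam 18968 and 601 (-5.34), and the epithelial regulators Grhl2 (6803 and 100, -6.42) and Esrp1 (2034 and 285, -3.19), a splicing factor, were lower, as were the tight junction genes Cldn4 (6842 and 156, -5.80) and Cldn6 (2186 and 191, -3.87). Cdh2, Cdh11 (142 and 12324, 6.05), Cdh4 (257 and 10451, 4.97) and the repressors of the epithelial state Zeb2 (76 and 17915, 7.48) and Zeb1 (3941 and 17551, 1.78) were higher. Of the 23 genes of this list 10 were higher and 12 lower in the labelled wild-type pair.

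Axon guidance genes were higher for 27 of 31, and none was lower (median 4.03). The receptors Robo2 (6 and 6816 counts, 9.38), Robo3 (125 and 10061, 5.94), which steers commissural axons, Dcc (44 and 5756, 6.60), Nrp1 (54 and 9304, 7.01) and Epha3 (0 and 4752, at least 10.26) and the ligands Slit2 (639 and 13526, 4.03) and Ntn1 (766 and 11390, 3.52) were higher. Ntn1, made by the floor plate, had 55313 counts in the library labelled Htt-null, and Robo3 had 1563. Ion channel and transmitter receptor genes were higher for 26 of 28 (median 3.79, and 2.29 under the Htt-null label). The AMPA receptor subunits Gria2 (4 and 8008 counts, 10.03) and Gria1 (3 and 2187) and the sodium channel Scn3a (224 and 7719, 4.73) were higher, and the calcium channel Cacna1a was lower (4411 and 3255, -0.81). Grin1, the obligate NMDA receptor subunit, had 234 and 557 counts (0.88) and 253 in the library labelled Htt-null (-0.07).

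Of 26 proliferation genes, 12 were lower, 1 was higher and the median was -0.63. Mki67, a marker of cycling cells, was within the limit (56067 and 78747 counts, 0.12), and of the genes of the replicative helicase Mcm2 (51041 and 32345, -1.03), Mcm3 (-1.02), Mcm6 (-1.02) and Mcm7 (64902 and 44090, -0.93) were lower while Mcm4 and Mcm5 lay within the limit. The summed level of the list was 10607 CPM in ESC and 6496 in RA-DIFF. Cyclins and inhibitors of the G1 phase were higher for 9 of 14 (median 1.06). Ccnd2 had 2747 and 113126 counts (4.99), and the inhibitors Cdkn1c (2491 and 15716, 2.29) and Cdkn2c (379 and 2052, 2.06) and the antiproliferative Btg2 (3629 and 19714, 2.07) were higher. In the Myc family Mycn was lower (12473 and 8151, -0.98), Myc (1078 and 5172, 1.89) and Mycl (2364 and 18655, 2.61) were higher, and Mga, a repressor of germline genes, was lower (78775 and 14797, -2.78).

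Ribosome biogenesis genes were lower for 25 of 30 and none was higher, within a narrow range from -1.99 to -0.03 (median -1.30, and -1.27 for the library labelled Htt-null). Ncl (nucleolin, 247528 and 144074 counts, -1.15), Npm1 (172788 and 94260, -1.24), the snoRNP protein Dkc1 (32179 and 13583, -1.61) and Heatr1 (27680 and 8995, -1.99) were among them, and the sum was 11347 CPM in ESC and 4704 in RA-DIFF. Glycolysis genes were lower for 10 of 22 (median -0.71), among them the glucose transporter Slc2a3 (134664 and 17480, -3.32), Pfkp (38018 and 4282, -3.52), Aldoa (131276 and 45102, -1.91) and the kinase Pdk1 (34911 and 9230, -2.29), which blocks pyruvate entry into mitochondria, while the neural isoforms Aldoc (2850 and 11606, 1.66) and Eno2 (822 and 2613, 1.30) were higher. Under the Htt-null label Pdk1 had 2028 counts, Slc16a3 515 against 5422 in the library labelled wild type, and the median was -1.32. Cholesterol synthesis genes were higher for 10 of 23 and none was lower (median 0.54), with 42983 and 162231 counts of Hmgcs1 (1.55).

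Chromatin regulators held genes in both directions. Of 13 genes of DNA methylation, 6 were lower and 2 higher. The de novo methylation genes Dnmt3l (24654 and 277 counts, -6.83) and Dnmt3b (14299 and 2336, -2.98) and the demethylase Tet1 (58787 and 7066, -3.43) were lower, and the demethylase Tet3 (1859 and 19235, 3.00) was higher. Of 27 Polycomb subunits 7 were higher and 9 lower (median -0.01). Among the subunits that bind the histone mark, Cbx7 of ESC was lower (22627 and 2708, -3.43) and Cbx2 (3048 and 13104, 1.73) and Cbx8 (122 and 1541, 3.27) were higher. Phc1 was lower (75085 and 17968, -2.43) and Phc2 higher (1737 and 45286, 4.33), and the accessory subunits Jarid2 (65529 and 17008, -2.32) and Mtf2 (55551 and 10854, -2.73) were lower. Rest, the repressor of neuronal genes, was lower (17036 and 7211, -1.61), while most of its corepressors lay within the limit.

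Imprinted genes, which are expressed from the chromosome of a given parent, were higher for 18 of 28 and lower for 6 (median 1.76). Nnat (389 and 39254 counts, 6.28), Igf2 (193 and 17716, 6.14), Plagl1 (593 and 48199, 5.97), Dlk1 (113 and 6436, 5.44) and Ndn (820 and 23457, 4.47) were higher, and Phlda2 (2546 and 32, -6.58) and Slc22a18 (438 and 4, -6.46) were lower. H19 had 763 and 3778 counts (1.94) and 56339 in the library labelled Htt-null (6.02), and Mest had 6813, 26349 and 255493 counts. Splicing and post-transcriptional regulators were higher for 12 of 19. Celf3 (38 and 12862, 7.96), Srrm4 (185 and 7980, 5.05), Nova2 (293 and 10753, 4.82) and Ptbp2 (8780 and 44394, 1.97), all of neurons, were higher, Lin28a was lower (22438 and 2913, -3.31), and Ptbp1 was within the limit (61474 and 58130).

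The p53 targets were lower for 7 of 13 and higher for none (median -0.84), with 4546 and 853 counts of Pmaip1 (-2.78) and 3519 and 903 of Bbc3 (-2.33), both promoters of cell death. Of 20 immediate early and heat shock genes, which also respond to cell handling, 6 were higher and 8 lower (median 0.15). Fos had 225 and 1103 counts (1.91) and 3475 in the library labelled Htt-null, and Egr1 had 2344, 4603 and 15248. Of the 6 measured Y-linked genes 5 were lower (median -1.75), with 4891 and 1630 counts of Ddx3y (-1.95), 4408 and 2548 of Eif2s3y (-1.16) and 2263 and 1000 of Uty (-1.55). In the library labelled Htt-null Ddx3y had 4440 counts and Uty 1886, within the limit. The cause of the Y-linked difference was not tested. Of 4 genes of the X inactivation centre, Jpx (31 and 432 counts, 3.35) and Ftx (234 and 1432, 2.23) were higher, and Xist (751 and 96) and its antisense partner Tsix (412 and 44) were lower. Which of the last pair a read came from depends on the strand setting of the counting, which was not tested.

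Among all protein-coding genes, those with the highest ratios, ranked by the nearer bound of the counting interval, were Fabp7, Zic4, Dcx, Dbx1, Zic1 (9 and 49770 counts, 11.79), the growth factor Ptn (60 and 191289, 11.22), Itgb8 (11.56, 10.67 to 15.57), Erbb4, the microtubule regulator Stmn4 (0 and 6422, at least 10.69) and the endothelin receptor Ednrb. Those with the lowest ratios were Gm7325 (8427 and 10 counts, -9.77), Fat2 (-9.87, -14.08 to -9.18), Rbm44 (7040 and 8, -9.76), Scand1, Utf1, Hormad1, Aire (9747 and 37, -8.32), Lefty2, Tdgf1 and Lrrc2 (6588 and 24, -8.33). Each of the 20 kept its direction in the library labelled Htt-null and in the labelled Htt-null pair.

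**Figure D4:**
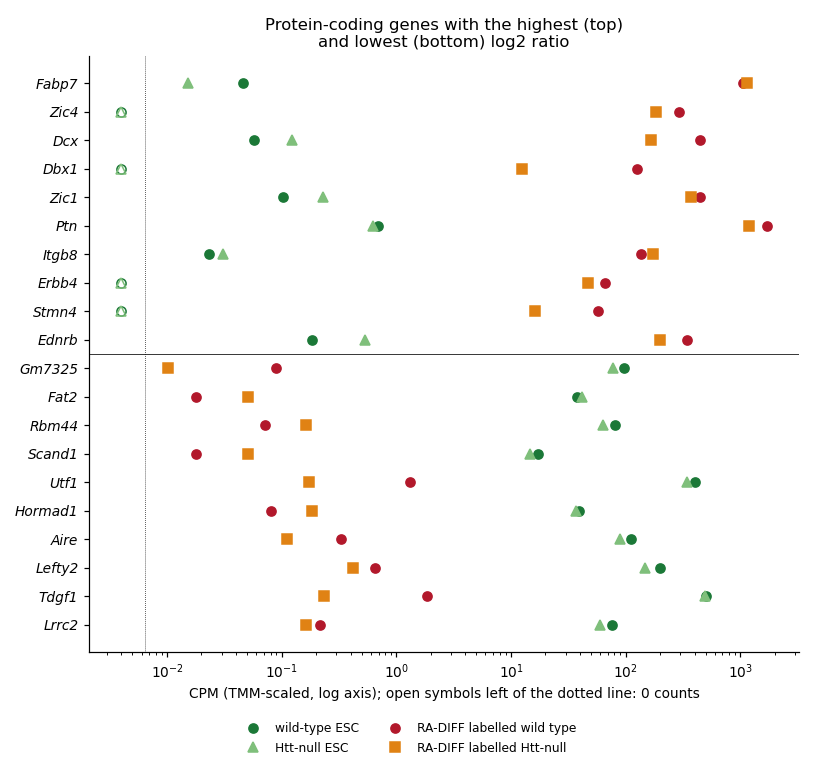
CPM (log axis) of the 10 protein-coding genes with the highest and the 10 with the lowest log2 ratio in the labelled wild-type pair, in all 4 RNA-seq libraries, 1 symbol a library, with open symbols for 0 counts. In every row both ESC libraries lie apart from both RA-DIFF libraries, and Zic4, Dbx1, Erbb4 and Stmn4 are at 0 counts in both ESC libraries.

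In absolute terms the largest gains in CPM were those of the desaturase Scd2 (97622 and 374426 counts, 1.57), Ptn, Vim, the tubulin Tubb5 (143976 and 353515, 0.93), mt-Nd1 (162173 and 346225, 0.72), Actb (74667 and 229967, 1.25), Sox11, the membrane protein Marcks (9213 and 132847, 3.48), Fabp7 and the microtubule protein Map1b (14944 and 133369, 2.79). The largest losses were those of Gm38312 (350571 and 11345, -5.32), Gm26917 (216946 and 14112, -4.31), Cmah (182362 and 3145, -6.23), the chaperones Hsp90ab1 (407313 and 310081, -0.76) and Hsp90aa1 (197097 and 62320, -2.03), the ribosomal protein Rpl4 (261125 and 130781, -1.37), the elongation factor Eef2 (372512 and 281676, -0.77), Ncl, Dppa5a (130361 and 1065, -7.30) and Slc2a3. The 10 most abundant genes held 3.64% of the ESC counts and 3.17% of the RA-DIFF counts. Among long non-coding RNA genes the highest ratios were those of Pantr1 (at least 11.82), Mir124-2hg, Miat (96 and 69137 counts, 9.09), C130021I20Rik (2 and 3796) and Gm29478 (0 and 1607), and the lowest those of 4930591A17Rik, Gm5091 (2123 and 4, -8.73), Platr22 (1585 and 4, -8.31), RP23-423J10.2 and Panct2 (4434 and 29, -7.51).

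Some features that the choice of genes did not use went with the direction. The span of protein-coding genes from first to last base was cut into 10 equal groups. The longest group (over 129 kb, median 214 kb, 1682 genes) had a median log2 ratio of 1.03, with 54.9% of its genes higher and 19.9% lower, while the medians of the other 9 lay between -0.07 and 0.22. The longest group had a median of 1.14 with RA-DIFF labelled Htt-null and of 1.26 in the labelled Htt-null pair. Many genes of adhesion, axon guidance and synapses are long, and genes are not independent replicates. Promoters were classed by their CpG content, with an observed over expected ratio above 0.6 called rich, for the 12410 of 16817 protein-coding genes measured (73.8%) that have a RefSeq promoter. CpG-rich promoters made up 79.8% of the genes within the limit, 63.0% of the higher and 52.6% of the lower genes. For genes beyond 4 on the log2 scale the shares were 49.6% of the higher and 25.4% of the lower. They were 40.6% of the 165 genes seen in RA-DIFF alone and 13.5% of the 74 seen in ESC alone.

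**Figure D5:**
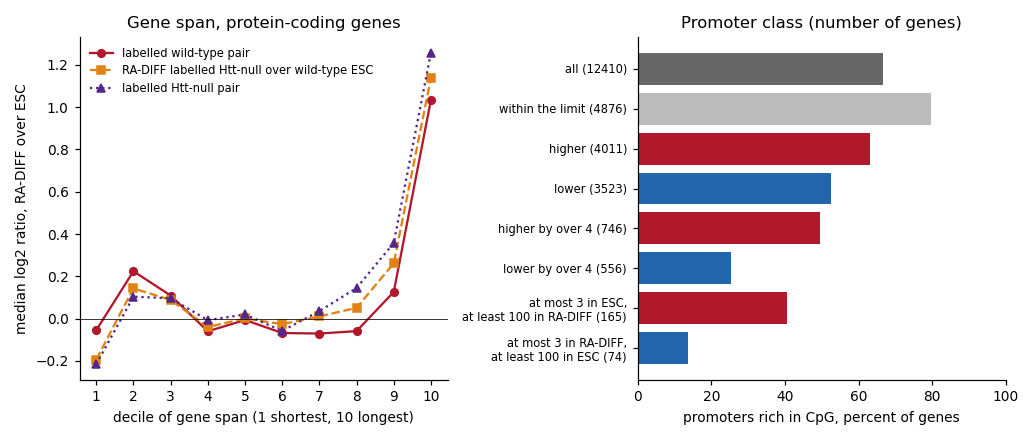
Left, median log2 ratio of RA-DIFF over ESC in 10 groups of protein-coding genes by gene span, for 3 pairs of libraries. Right, share of genes with a CpG-rich promoter (bars from 0, percent) by class in the labelled wild-type pair, from 79.8% of the genes within the limit to 13.5% of those seen in ESC alone.

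By chromosome, protein-coding genes with over 200 counts in the 2 libraries together had medians between -0.04 and 0.19 on the autosomes other than chromosome 8, and 0.40 on the X. Chromosome 8 stood apart with a median of 0.54 over 742 genes, 44.9% of them higher and 17.9% lower, against 0.09 over the 13028 genes elsewhere (32.5% and 25.9%). With RA-DIFF labelled Htt-null over the same wild-type ESC library its median was 0.36, and in the labelled Htt-null pair it was 0.01. The cause was not tested.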

How the data were processed

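RNA was sequenced from 4 cultures, 1 per genotype and stage, as stranded poly-A libraries read at 50 bp. The authors aligned the reads with TopHat2 2.0.14 and made the deposited counts per gene with HTSeq 0.6.1 on GENCODE annotation of GRCm38. The study's methods name default settings apart from the overlap mode, and whether the default strand setting was used on these stranded libraries was not tested. The counts were scaled here with TMM factors over the 4 libraries (edgeR 4.0.16 in R 4.3.3) and compared as log2 CPM with a prior count of 2 in Python 3.11.15. Counting intervals were exact binomial (scipy 1.17.1) at the 95% level, and a count of 0 was read as at most 3, which is 0.0268 to 0.0460 CPM. The calculation was tested on simulated data.

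Named genes were Htt, the genes of 51 lists, the 10 protein-coding genes with the highest and lowest ratios, the 10 largest gains and losses in CPM, 5 long non-coding RNA genes each way, and the 10 best counted genes with at most 3 counts at the other stage. The genes and lists were chosen with earlier results of these data known. A gene was a member at 10 counts in either library, and list counts cover the measured members alone. Alternatives were the other RA-DIFF library, other scalings (DESeq2 1.42.0 size factors among them), prior counts, filters and limits. Small RNA libraries were not used here. Some genes of the lists are not reported here.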

Additional observations from a re-analysis of the deposited data

Results flagged for a closer look

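Among the genes measured, 332 (1.43%) were past the limit in opposite directions in the labelled wild-type pair and in the labelled Htt-null pair. Of these, 241 had fewer than 100 counts in both libraries of the labelled wild-type pair, where counting error is wide. Each pair has 1 library a side, so these differences were not tested, and the Htt counts went against the labels of both RA-DIFF libraries.

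The median log2 ratio of primitive and visceral endoderm genes was -1.03 in the labelled wild-type pair and 0.56 in the labelled Htt-null pair. It was -0.82 for RA-DIFF labelled Htt-null over wild-type ESC. For primitive streak and paraxial mesoderm genes the medians were -0.51 and 1.86.

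Among the 332 genes, 19 were genes of the lists, and the 11 with at least 100 counts in either library of the labelled wild-type pair are named here. Lower in the labelled wild-type pair and higher in the other were the ligand Bmp4 (-2.24 and 1.11), Hoxd8 (-1.57 and 1.29), the tropomyosin Tpm2 (-1.12 and 1.00) and the collagen cross-linking enzyme Lox (-0.85 and 4.18). Higher in the labelled wild-type pair and lower in the other were the sensory neuron factors Pou4f1 (2.03 and -1.23), Pou4f2 (1.49 and -1.26) and Tlx3 (1.88 and -2.10), the hindbrain factor Phox2a (1.30 and -2.96), the midbrain factor Dmbx1 (3.29 and -2.13), Pou3f1 (0.78 and -1.64) and the receptor subunit Grin1 (0.88 and -0.96). Of the 8 list genes below that count, 6 were lower in the labelled wild-type pair, among them Afp, and 2 were higher, among them Cdx1.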

How the results depend on the processing

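No paired analysis was possible because the labelled wild-type comparison has 1 library a side, with no replicate to leave out. A fit of stage over both lines with the line as a block, which would treat the genotypes as replicates, was not run. No difference given here carries an error between cultures.

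With the RA-DIFF library labelled Htt-null over the same ESC library, the median of all genes was 0.081, 233 genes were seen in ESC alone, and the list medians that moved out of the interval of ranks around the main median were pluripotency (-8.30), Notch and proneural (2.87), pan-neuronal (2.77), fibroblast (4.50), smooth muscle (2.64) and Y-linked (-0.54). The ion channel (2.29) and primitive streak (1.34) medians also shifted, within theirs. Among named genes past the limit, Bmp4 (0.13), Cdx1 (-1.07), Dmbx1 (-1.46), Grin1 (-0.070), Hoxd8 (0.84), Lox (3.20), Phox2a (-2.78), Pou3f1 (-2.24), Pou4f1 (-1.12), Pou4f2 (-1.67), Sox10 (0.30), Tgm2 (0.36), Tlx3 (-1.63) and Tpm2 (0.85) changed sign. In all, 208 of 263 named list genes moved out of their counting interval without a change of sign past the limit. The cause was not tested.

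The median of all genes was 0.15 with library totals alone, 0.079 with TMM over the 2 libraries, 0.059 with DESeq2 size factors, -0.19 with upper-quartile factors, 0.16 at 100 counts or more and 0.071 for protein-coding genes. Upper-quartile factors thus shifted all ratios down, and the medians of proliferation, ribosome biogenesis and cholesterol genes became -0.93, -1.61 and 0.23. At 100 counts or more 4333 genes were lower. A mean log2 CPM above 0 left 4675 higher and 3585 lower. It left few Hox genes, with medians of -1.57 (paralogues 5 to 8) and 1.77 (9 to 13). The former is the value of Hoxd8 alone, the only lower gene of its set, and the latter equals that of Hoxb9. A log2 limit of 2 gave 4173 and 3454. An edgeR exact test with a dispersion that was assumed, not measured, gave 3128 and 2227 at 0.1 and 4681 and 3590 at 0.01. With a floor of 0 counts 185 genes were seen in RA-DIFF alone and 51 in ESC alone, and at 1000 counts or more 84 and 5.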

Other observations

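Gene families taken by the stem of their symbols, a grouping made after the values were seen, held some that lay on 1 side throughout. All 22 beta protocadherins (Pcdhb) measured were higher in RA-DIFF labelled wild type, with a median log2 ratio of 7.80, as were all 11 alpha protocadherins (4.93) and all 11 protocadherins outside the clusters (8.10). The clustered protocadherins are known for giving neurons individual surface identities. Of the gamma A protocadherins 9 of 12 were higher and none was lower (1.87). Alpha and gamma genes share their last exons within a cluster, so their counts are uncertain. The medians with the RA-DIFF library labelled Htt-null were 7.12, 4.38, 7.69 and 2.39. Collagen genes were higher for 30 of 44 (2.26). Over all genes measured 35.5% were higher.

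Families of the opposite direction included the Nlrp genes of oocytes and inflammation (10 of 11 lower, median -3.44), kallikreins (10 of 11, -3.76), the Prss serine proteases (17 of 21, -2.47), keratins (16 of 21, -3.45) and olfactory receptors (17 of 21, -2.91). Over all genes measured 29.8% were lower. A gene is measured at 10 counts in either library, so members with few counts can enter through ESC alone. Histone genes were lower for 33 of 52 (-1.39, and -2.61 with the RA-DIFF library labelled Htt-null). Many histone messages carry no poly-A tail, and these libraries were selected for poly-A.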
